A study of Mus musculus with 45 samples.

Results

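HLX53 given alone was compared with vehicle in subcutaneous CT26 tumours of the experiment labelled T2106. The comparison rested on 6 of the 45 tumours in the series, 3 given HLX53 at 10 mg/kg and 3 given vehicle, out of 18 tumours in T2106. Tumours were taken into a group by the treatment in their labels, and no measured value was used. HLX53 is the study's antibody against TIGIT, and vehicle was saline. Both groups were BALB/c mice in which human PD-1 and human TIGIT had been knocked in, so the controls carried the same human receptors. Both had been inoculated in the flank with 500000 CT26 cells and were injected into the peritoneum 2 times a week from day 8, when tumours measured 90 to 100 mm3. A group given serplulimab, an antibody against PD-1, at 10 mg/kg in T2106 and the HLX53 and vehicle groups of a second experiment, T2215, served for comparison, with 3 tumours each. Neither the age of the mice nor the day of tumour collection is given in the sources used here. The labels do not say whether each tumour came from a separate mouse, so the p-values measure a spread between tumours only. That spread was estimated over all groups of an experiment, 18 tumours in T2106, and not from the 6 compared alone.

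TIGIT is an inhibitory receptor of T cells, regulatory T cells and natural killer cells. It binds the poliovirus receptor CD155 and nectin-2 on tumour and myeloid cells, and so competes with the activating receptor CD226 for the same ligands. An antibody that blocks TIGIT leaves those ligands to CD226. Cytotoxic lymphocytes that are released in this way are known for killing through perforin and granzymes, and for secreting interferon gamma.

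The deposited values were FPKM on a log2 scale, that is fragments scaled by gene length and by the mapped fragments of the library. At 0.5 FPKM or more the 6 tumours listed 13119 to 13396 genes, and pairs of them correlated at r = 0.959 to 0.99. In T2106 3 libraries stood apart, with a mean correlation under 0.9 with these 6, and all 3 came from groups given HLX53 with serplulimab. CT26 is a colon carcinoma line that its label calls undifferentiated, and the epithelial markers Epcam (0.0515 to 0.272 FPKM with HLX53, 0.0775 to 0.794 with vehicle) and Cdh1 (0.385 to 0.937 with HLX53, 0.307 to 0.369 with vehicle) were near the detection limit. The keratin gene Krt18 was present, at 12.02 to 12.83 FPKM with HLX53 and 9.26 to 12.06 with vehicle. In bulk tissue, fewer cells of a type and less RNA per cell cannot be told apart.

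One gene, Inmt, passed the test between HLX53 and vehicle, and it was lower with HLX53. Limma on log2(FPKM + 0.5), adjusted by the Benjamini-Hochberg method over 15070 genes, called 1 gene lower and 0 higher, or 0.00664% of the genes tested. At an unadjusted p under 0.05 there were 582 genes (3.86%), 272 of them higher (1.8%) and 310 lower (2.06%). A fit of only the 6 tumours compared gave 1264 of 15070 at that p, and 0 past the adjusted threshold. The 3 HLX53 tumours lay wholly above the 3 vehicle tumours for 803 genes (5.33%) and wholly below them for 1551 (10.3%). The median difference over all genes was −0.03 on the log2 scale, and the median standard error of a gene was 0.22.

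**Figure D1:**
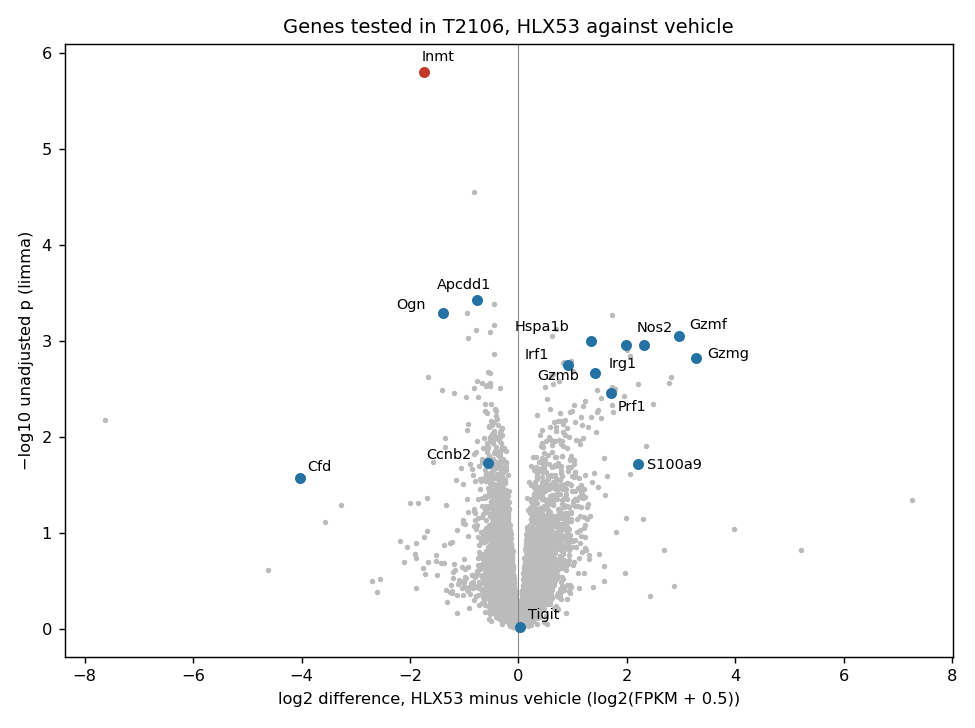
Each point is 1 of the 15070 genes tested in T2106, with the log2 difference of HLX53 minus vehicle on the x axis and −log10 of limma's unadjusted p on the y axis. Inmt (red) is the gene past the adjusted threshold, the granzyme genes Gzmf and Gzmg lie far to the right with a larger p, and Tigit lies at 0.03.

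Inmt encodes indolethylamine N-methyltransferase, which methylates tryptamine and related amines (ENSMUSG00000003477, chromosome 6, 55170626 to 55175043 on the minus strand of GRCm38, overlapping no other annotated gene). It had 0.503, 0.745 and 0.129 FPKM in the 3 HLX53 tumours, against 1.95, 3.19 and 2.81 FPKM in the 3 vehicle tumours. Every HLX53 tumour lay below every vehicle tumour, by a gap of more than 1 FPKM. The means were 0.459 ± 0.310 FPKM with HLX53 and 2.65 ± 0.637 with vehicle (SD, n = 3 each). Inmt fell by 1.75 ± 0.225 on the log2 scale (SE; limma, adjusted p = 0.0237). The call did not hold under every way of fitting. The limma adjusted p was 0.570 in a fit of only the 6 tumours compared, 0.245 with a pseudocount of 0.1, 0.126 without the 3 libraries that stand apart and 0.0657 with a replicate block. It was 0.0655, 0.0678, 0.264 and 0.251 without HLX53 tumour 1, HLX53 tumour 3, vehicle tumour 2 and vehicle tumour 3. The difference was −1.97 to −1.47 when a tumour was left out, −2.46 with a pseudocount of 0.1 and −1.33 with a pseudocount of 1.

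The lower level of Inmt was not shown to be particular to HLX53. In T2106 the serplulimab tumours had 0.741, 0.969 and 0.709 FPKM, also below every vehicle tumour. HLX53 minus serplulimab was −0.50 on the log2 scale (limma, adjusted p = 1 over all genes). Serplulimab with HLX53 had 0.313 ± 0.127 FPKM at 5 mg/kg of HLX53 and 0.283 ± 0.020 at 10 mg/kg, and pembrolizumab with tiragolumab had 0.727 ± 0.035 (SD, n = 3 each). All 5 treated groups of T2106 thus lay below its vehicle group. The table of T2215, which the authors normalised separately, held Inmt at 0.336, 0.163 and 0.470 FPKM in HLX53 tumours, against 3.65, 0.903 and 1.10 in vehicle tumours. The groups again did not overlap, with a difference of −1.37 ± 0.491 (SE; limma, adjusted p = 1). Tiragolumab alone, the other TIGIT antibody, had 3.06, 2.24 and 3.03 FPKM in T2215, all above the HLX53 tumours. With serplulimab it had 1.13, 0.775 and 0.759, also above them. With pembrolizumab it had 0.688, 0.322 and 0.179, which overlapped the HLX53 tumours. Pembrolizumab alone (0.687, 1.27 and 0.454) and serplulimab alone (0.646, 0.268 and 3.48) overlapped them too.

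**Figure D2:**
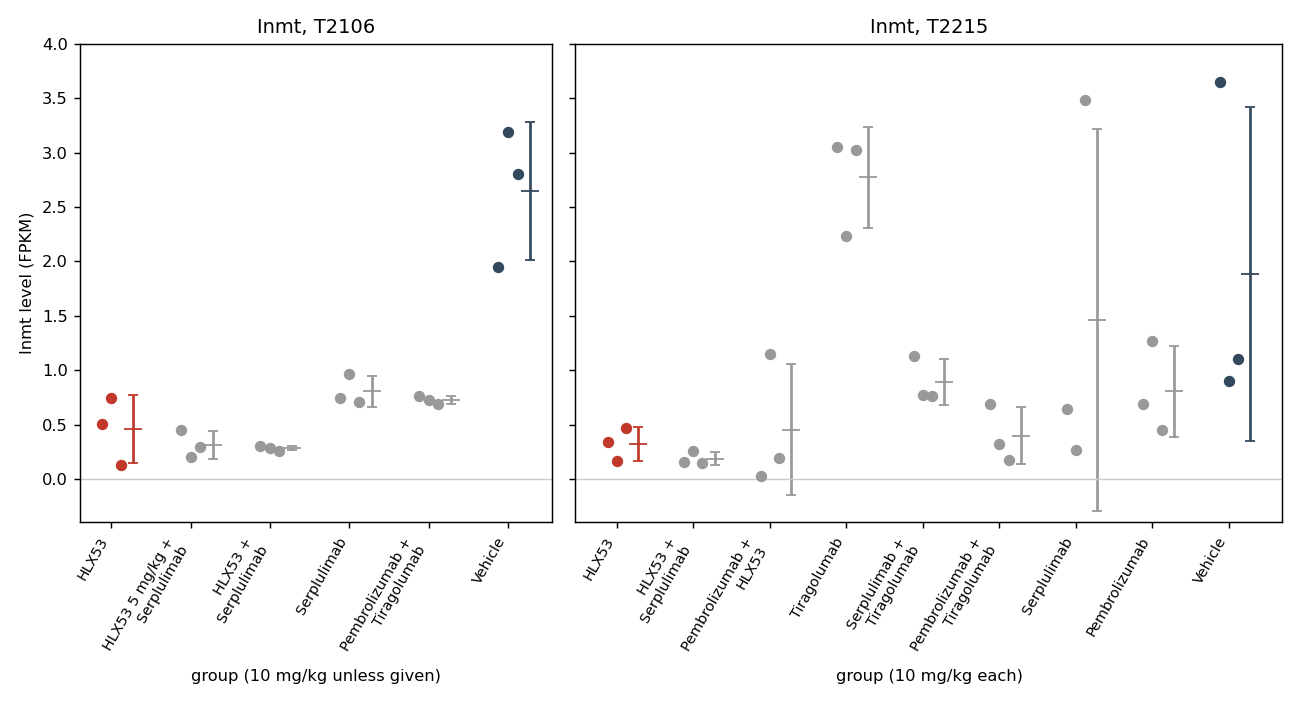
Inmt level in FPKM in every tumour (points) of the 6 groups of T2106 and the 9 groups of T2215, with the mean and SD of each group (n = 3). HLX53 alone (red, left) lies below vehicle (dark, right) in both experiments, at 0.129 to 0.745 against 1.95 to 3.19 FPKM in T2106, and tiragolumab alone lies at 2.24 to 3.06 FPKM in T2215.

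The promoter of Inmt is shown because it is the gene that passed the test. It runs from 250 bases before the start of transcription to 50 after it, in RefSeq on GRCm38.p6, chr6:55174941-55175240 on the minus strand. The capitals mark the letters TATAAA, searched on both strands, which occur 80 and 69 bases before this RefSeq start. The GENCODE gene given above begins upstream of it, at 55175043 inside the window, so both distances are shorter from there.
Inmt: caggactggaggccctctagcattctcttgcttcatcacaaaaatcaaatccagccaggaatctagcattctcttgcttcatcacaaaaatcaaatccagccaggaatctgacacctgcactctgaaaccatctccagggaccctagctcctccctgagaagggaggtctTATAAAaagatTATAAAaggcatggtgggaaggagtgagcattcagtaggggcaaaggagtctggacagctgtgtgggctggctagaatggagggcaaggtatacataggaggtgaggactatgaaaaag
These letters occur in 13.6% of 32851 mouse promoters of the same length. A match of letters is a description of the window, and no binding was measured.

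Tigit and the genes of its axis showed no difference that the test could call. Mouse Tigit (chromosome 16, 43648867 to 43664146) had 15.8, 16.9 and 16.9 FPKM with HLX53, against 17.9, 13.6 and 17.3 with vehicle. The vehicle tumours lay on both sides of the HLX53 tumours, and the difference was 0.03 on the log2 scale with a 95% interval of −1.04 to 1.11. A change inside that interval is not excluded. The interval is not adjusted over all genes, so a call by the test would have needed a larger change still. The tables list mouse genes, and the human TIGIT transcript was not analysed here. The activating receptor Cd226 had 0.750, 0.531 and 1.63 FPKM with HLX53 and 0.485, 0.561 and 0.752 with vehicle (difference 0.36, interval −0.89 to 1.60). Cd96, a further receptor for CD155, had 1.47, 1.12 and 3.41 FPKM with HLX53, against 0.949, 0.915 and 1.06 with vehicle, and its groups did not overlap (0.65; limma, adjusted p = 1).

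The ligands of TIGIT were present in all 6 tumours. Pvr, which encodes CD155, had 76.2, 92.7 and 62.9 FPKM with HLX53 and 67.8, 48.0 and 61.1 with vehicle (0.38, interval −0.33 to 1.10). Nectin-2, listed under its older name Pvrl2, had 13.03, 13.63 and 13.1 FPKM with HLX53 and 12.6, 14.6 and 12.4 with vehicle (0.01, interval −0.54 to 0.55). The 3 HLX53 tumours lay inside the range of the vehicle tumours. The nectins Pvrl1 (0.01), Pvrl3 (−0.18) and Pvrl4 (−0.10) also overlapped between the groups. Over the 8 tested members of the axis 0 were called, 0 had an unadjusted p under 0.05, and the median difference was 0.02.

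Genes of killing by lymphocytes had higher values with HLX53, and none passed the adjusted threshold. Of 18 genes of CD8 T cells and cytotoxic effectors, 9 had an unadjusted p under 0.05 and a higher value, against 1.8% of all genes, and 8 of 18 did not overlap between the groups, against 5.33%. The median difference of the list was 0.75. Here and in the fits that leave out a tumour, the neighbouring granzyme genes Gzmc, Gzmd, Gzme and Gzmf were counted as separate members. Gzmf, which encodes granzyme F (chromosome 14, 56205263 to 56211417), had 269, 315 and 1199 FPKM in HLX53 tumours, against 188, 24.1 and 46.9 in vehicle tumours. Tumour 3 of the HLX53 group lay far above the others of its group, and vehicle tumour 1 came close to the lower HLX53 tumours. The difference was 2.95 ± 0.708 (SE; limma, adjusted p = 0.951).

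The other granzymes of that cluster had the same shape. Gzmg had 213, 250 and 1103 FPKM with HLX53 and 196, 12.5 and 24.8 with vehicle (3.28), Gzmd had 168, 198 and 896 with HLX53 and 159, 18.2 and 28.5 with vehicle (2.81), and Gzmc had 107, 127 and 366 with HLX53 and 78.1, 25.1 and 34.5 with vehicle (2.05). These genes lie beside each other on chromosome 14 and are close copies, so their reads may be shared and they do not count as separate evidence. Granzyme B, encoded by Gzmb, had 80.1, 111 and 241 FPKM with HLX53 and 64.8, 32.8 and 52.8 with vehicle, a difference of 1.41 ± 0.378 (SE; limma, adjusted p = 0.951). Prf1, which encodes the pore-forming perforin, lies on another chromosome and had 34.1, 40.3 and 117 FPKM with HLX53 and 25.97, 9.01 and 18.7 with vehicle (1.70 ± 0.487). In each of these genes the HLX53 and vehicle tumours did not overlap, HLX53 tumour 3 was the highest and vehicle tumour 2 the lowest.

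HLX53 tumour 3 was the highest of its group in 18 of 18 cytotoxic genes, and without it 7 of 18 had an unadjusted p under 0.05, against 0.836% of all genes in that fit, and the median was 0.44. Without vehicle tumour 2 the values were 8 of 18, against 0.703% of all genes in that fit, and 0.73. Markers of T cells themselves showed smaller differences. Of 22 genes of T cell identity 0 had an unadjusted p under 0.05, and the median was 0.12. That median depended on the fit, at −0.15 with 5 of 22 above 0 without HLX53 tumour 3, and at 0.65 with 22 of 22 above 0 when the level of adipocyte genes, described further down, was a covariate. Cd8a, a subunit of the CD8 coreceptor, had 6.59, 2.66 and 8.01 FPKM with HLX53 and 5.84, 2.996 and 6.08 with vehicle (0.13, interval −1.51 to 1.77). Cd3e, of the T cell receptor complex, had 4.50, 1.40 and 5.08 with HLX53, against 3.74, 3.55 and 4.06 with vehicle. HLX53 tumour 2 was the lowest of all 6 for both genes and yet held more Gzmb and Prf1 than any vehicle tumour.

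**Figure D3:**
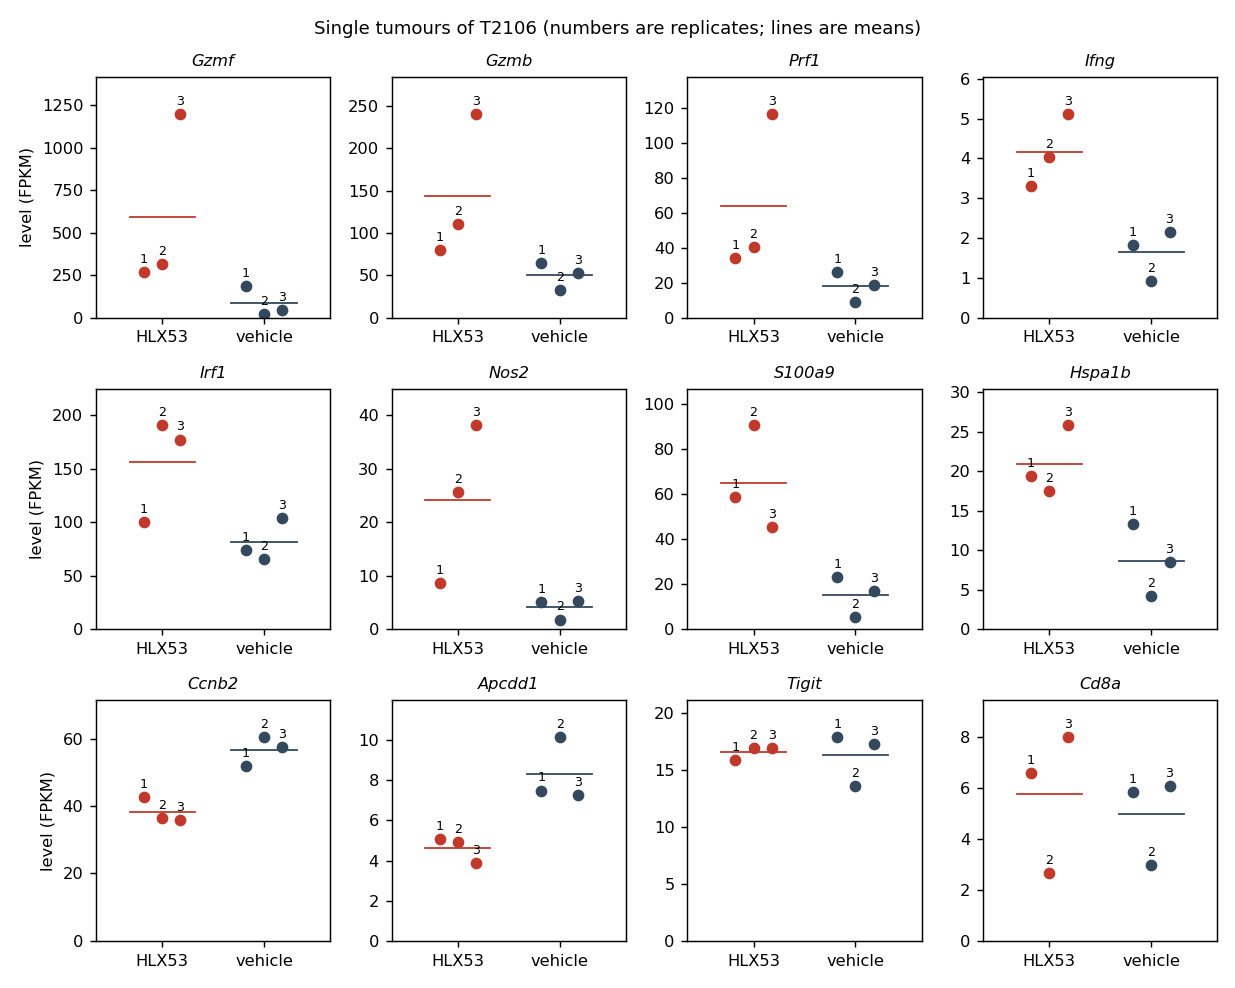
Level in FPKM (y axis, from 0) of 12 genes in the single tumours of T2106, HLX53 left and vehicle right, with replicate numbers and a line at each mean. HLX53 tumour 3 reaches 1199 FPKM for Gzmf and 241 for Gzmb, while Tigit and Cd8a overlap between the groups.

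Among other lymphocyte genes, Klrg1, a receptor of effector T and natural killer cells, had 4.27, 4.57 and 16.6 FPKM with HLX53 and 2.63, 1.81 and 2.34 with vehicle (1.45; limma, adjusted p = 1). It was 1 of 11 natural killer genes with an unadjusted p under 0.05 on the higher side, against 1.8% of all genes. All 11 lay above 0, with a median of 0.36, while in T2215 6 of 10 lay below 0, with a median of −0.36. The natural killer receptor Ncr1 had 5.71, 3.92 and 6.74 FPKM with HLX53 and 2.63, 2.76 and 5.48 with vehicle, and its groups overlapped. Zbtb32, a transcriptional repressor of activated lymphocytes, had 3.38, 4.32 and 7.84 FPKM with HLX53 and 2.41, 1.82 and 2.58 with vehicle (0.97). Regulatory T cells, which also carry TIGIT, are marked by the factor Foxp3. It had 0.294, 0.137 and 0.098 FPKM with HLX53 and 0.413, 0.575 and 0.382 with vehicle, so that the groups did not overlap at levels around the 0.5 FPKM minimum (−0.51; limma, adjusted p = 1). Il2ra, also a gene of activated T cells, had 1.22, 2.33 and 6.66 FPKM with HLX53 and 1.68, 0.699 and 0.824 with vehicle (1.11). The regulatory T cell list had a median of −0.12 over 9 genes. Of these 1, Il2ra, had an unadjusted p under 0.05 on the higher side, against 1.8% of all genes. Cd4 had 1.03, 0.496 and 0.502 FPKM with HLX53 and 0.692, 1.22 and 0.908 with vehicle, and overlapped.

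Interferon gamma and the genes that answer to it had higher values with HLX53, again with 0 past the adjusted threshold. Ifng had 3.32, 4.03 and 5.12 FPKM in HLX53 tumours and 1.84, 0.917 and 2.16 in vehicle tumours, without overlap (1.15 ± 0.361, SE; limma, adjusted p = 1). Of 25 interferon gamma response genes, 25 had a difference above 0 and 18 an unadjusted p under 0.05 on the higher side, against 1.8% of all genes. The median of the list was 0.74. For 3 of 25 the groups did not overlap, beside 5.33% of all genes. HLX53 tumour 1 was the lowest of its group in 23 of 25 genes, and vehicle tumour 2 was the lowest of its group in 20 of 25. Without vehicle tumour 2 the unadjusted count was 9 of 25, against 0.703% of all genes in that fit, and the median was 0.57. Without HLX53 tumour 3 the count was 10 of 25, against 0.836%, and without HLX53 tumour 1 it was 20 of 25, against 2.16%.

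Irf1, a transcription factor induced early by interferon gamma (chromosome 11, 53770014 to 53778374), had 100, 191 and 178 FPKM with HLX53 and 74.5, 65.4 and 104 with vehicle. HLX53 tumours 2 and 3 lay above all vehicle tumours, and HLX53 tumour 1 lay just below vehicle tumour 3. The difference was 0.91 ± 0.237 (SE; limma, adjusted p = 0.951). Nos2, the inducible nitric oxide synthase, had 8.75, 25.7 and 38.1 FPKM with HLX53 and 5.10, 1.84 and 5.33 with vehicle (2.31 ± 0.569). Irg1, current name Acod1, the itaconate-making enzyme of activated myeloid cells, had 16.7, 39.3 and 46.8 FPKM with HLX53 and 9.18, 3.15 and 14.1 with vehicle (1.99). Socs1, which restrains interferon signalling, had 28.8, 36.7 and 44.0 with HLX53, against 23.5, 23.8 and 27.1 with vehicle (0.53), and the guanylate-binding protein gene Gbp5 had means of 45.3 with HLX53 and 21.7 with vehicle (1.03). Nos2, Irg1 and Socs1 did not overlap between the groups, and Gbp5 did.

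The chemokines that draw T cells overlapped between the groups. Cxcl9 had 74.4, 241 and 89.6 FPKM with HLX53 and 37.9, 102 and 70.9 with vehicle (0.85, interval −0.34 to 2.03), and Cxcl10 had 37.1, 68.8 and 62.3 with HLX53, against 31.7, 25.1 and 44.9 with vehicle (0.71). The list of antigen presentation by MHC class I had a median of 0.23 over 15 genes, with 2 of 15 higher at an unadjusted p under 0.05, against 1.8% of all genes. The count was 8 of 15 without vehicle tumour 3, against 2.16% of all genes in that fit, with a median of 0.42. It was 0 without HLX53 tumour 3 and 0 without vehicle tumour 2, with a median of 0.13 in both. Without vehicle tumour 1 the count was 1, against 2.09% of all genes in that fit. Tapbp, which loads peptides, had 204, 288 and 276 FPKM with HLX53 and 182, 163 and 214 with vehicle (0.45). B2m, the light chain of MHC class I, had 3806, 5623 and 4741 FPKM with HLX53 and 3959, 5603 and 3891 with vehicle (0.08), and the heavy chain gene H2-K1 had 30.2, 42.7 and 36.4 with HLX53, against 29.98, 49.5 and 30.4 with vehicle (0.02). Both overlapped completely. The class II list had a median of 0.51 with 0 of 10 at an unadjusted p under 0.05, and the type I interferon list had 0.09 with 0 of 20. With the adipocyte covariate 7 of 10 class II genes had an unadjusted p under 0.05 and a median of 1.21, where 6.62% of all genes were higher at that p. The type I median was −0.13 without HLX53 tumour 3 and −0.12 without vehicle tumour 2. H2-Aa, a class II chain, had 44.7, 12.6 and 51.5 FPKM with HLX53, against 11.2, 12.5 and 26.1 with vehicle.

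Ligands that restrain T cells were among the genes with higher values. Cd274, which encodes the PD-1 ligand PD-L1 and responds to interferon gamma, had 22.6, 46.8 and 51.5 FPKM with HLX53 and 15.7, 7.46 and 22.2 with vehicle, just without overlap (1.43 ± 0.473, SE; limma, adjusted p = 1). The second PD-1 ligand, Pdcd1lg2, had 2.52, 2.64 and 14.4 FPKM with HLX53 and 1.06, 1.16 and 1.44 with vehicle (1.61), and the costimulatory ligand Cd86 had 8.65, 11.99 and 10.1 with HLX53, against 4.60, 4.37 and 6.76 with vehicle (0.91). Mouse Pdcd1 itself, which encodes PD-1, had 2.25, 0.788 and 2.63 FPKM with HLX53 and 1.39, 0.684 and 2.06 with vehicle, and overlapped (0.32). Of 15 checkpoint receptors and ligands 5 had an unadjusted p under 0.05 on the higher side, against 1.8% of all genes. Without vehicle tumour 2 that count was 0, against 0.703% of all genes in that fit, and without HLX53 tumour 3 it was 2, against 0.836%.

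Neutrophil genes and inflammatory cytokines had higher values throughout. All 17 tested neutrophil genes had a difference above 0, with 4 at an unadjusted p under 0.05, against 1.8% of all genes, 7 without overlap, against 5.33%, and a median of 0.69. Irg1, given above beside interferon gamma response genes, is a member of the neutrophil list and not of that list, and is in both of these counts. S100a8 and S100a9 encode calprotectin, which neutrophils hold in bulk. S100a9 had 58.9, 90.6 and 45.3 FPKM in HLX53 tumours, against 23.2, 5.46 and 17.1 in vehicle tumours (2.21 ± 0.840, SE; limma, adjusted p = 1). S100a8 had 27.1, 36.2 and 26.5 FPKM with HLX53 and 8.81, 3.04 and 10.9 with vehicle (2.06). The groups did not overlap for either, and HLX53 tumour 2 was the highest. Lcn2, an iron-binding protein of neutrophils, had means of 57.1 with HLX53 and 25.5 with vehicle, and overlapped (1.20).

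Of 20 inflammatory cytokines and chemokines, 20 had a difference above 0 and the median was 0.83. An unadjusted p under 0.05 was found for 9, against 1.8% of all genes, and 7 did not overlap, against 5.33%. Cxcl1, which attracts neutrophils, had 45.5, 94.2 and 29.8 FPKM with HLX53 and 21.2, 3.98 and 23.1 with vehicle (1.95). Tnf had 3.64, 5.74 and 5.79 with HLX53 and 2.76, 1.42 and 2.44 with vehicle (1.05). Ptgs2, the inducible cyclooxygenase, had 63.3, 103 and 65.1 with HLX53, against 48.8, 19.7 and 37.6 with vehicle (1.17). All 3 genes lay wholly above vehicle. Vehicle tumour 2 was the lowest vehicle tumour in 17 of 20 genes of the list, and without it 2 of 20 had an unadjusted p under 0.05, against 0.703% of all genes in that fit, and the median was 0.42. The count was 3 of 20 without HLX53 tumour 2, against 1.42% of all genes in that fit, and 4 of 20 without HLX53 tumour 3, against 0.836%. In the neutrophil list 3 of 17 had such a p without vehicle tumour 2, with a median of 0.62, and 2 of 17 without HLX53 tumour 2, with a median of 0.61.

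The macrophage and monocyte list had a median of 0.28. Of its 17 genes 1 had an unadjusted p under 0.05 on the higher side, against 1.8% of all genes. It was Cd14, the lipopolysaccharide coreceptor, at 99.5, 104 and 107 FPKM with HLX53 and 77.7, 48.4 and 79.6 with vehicle (0.62). With the adipocyte covariate 7 of 17 had such a p, against 6.62% of all genes in that fit, with a median of 0.70. The dendritic cell list had a median of −0.07 over 16 genes, of which 6 lay above 0. Within it Itgax, which encodes CD11c, had 4.54, 4.47 and 6.69 FPKM with HLX53 and 2.16, 1.70 and 3.04 with vehicle (1.04), and Irf8, a factor of dendritic cells and monocytes, had means of 47.3 with HLX53 and 23.2 with vehicle. Both lay above vehicle without overlap, 2 of 16 against 5.33% of all genes, and 3 of 16 lay below it, against 10.3%. Fscn1, the actin bundler of mature dendritic cells, had 75.9, 79.6 and 60.5 FPKM with HLX53, against 88.0, 109 and 82.3 with vehicle (−0.37 ± 0.125, SE; limma, adjusted p = 1). The lectin genes Cd209a (−0.68) and Siglech (−0.53) lay below vehicle at under 1 FPKM in all 6 tumours. Mast cell genes were low in 1 HLX53 tumour. Cpa3, a mast cell carboxypeptidase, had 12.4, 2.93 and 12.2 FPKM with HLX53 and 9.36, 12.8 and 10.4 with vehicle, and the mast cell protease gene Mcpt4 had 17.1, 2.64 and 12.6 with HLX53, against 11.3, 15.1 and 11.1 with vehicle.

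**Figure D4:**
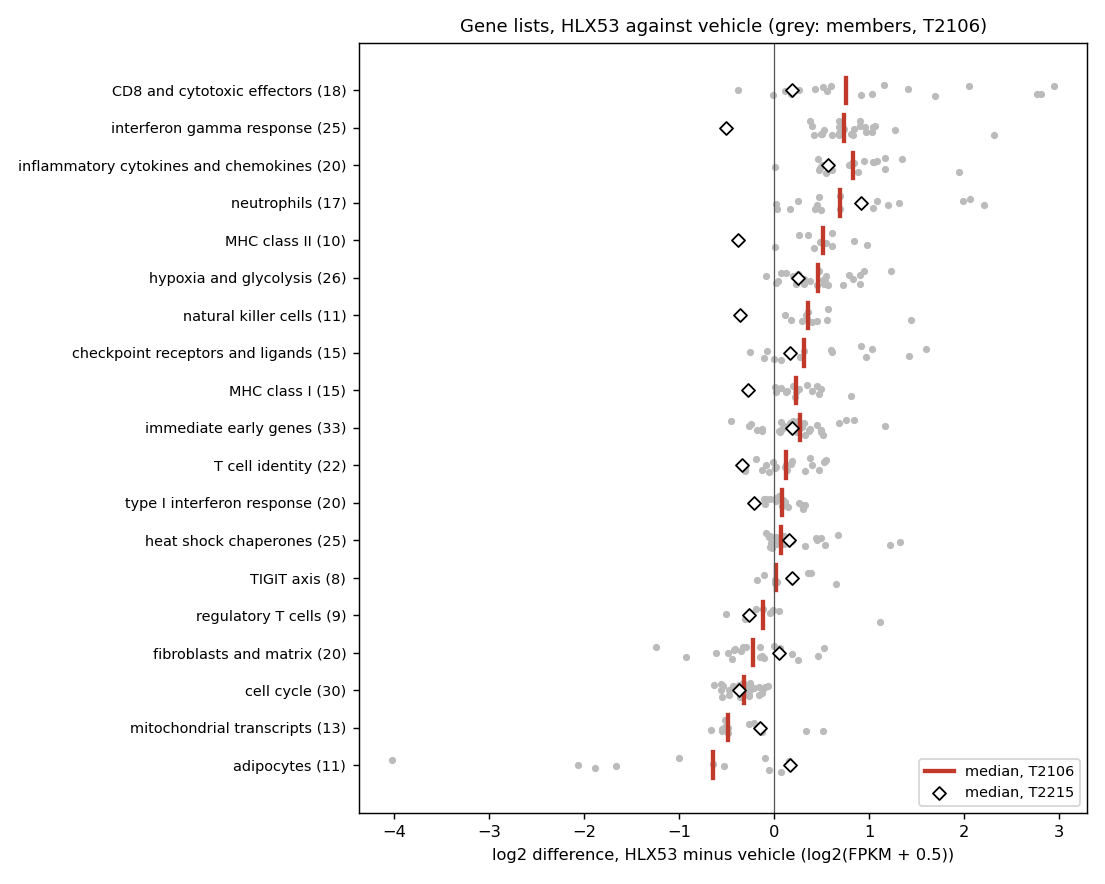
Log2 difference of HLX53 minus vehicle in T2106 for the members (grey points) of 19 gene lists, with the number tested in brackets, the list median in T2106 (red bar) and in T2215 (diamond). The interferon gamma list has a median of 0.74 in T2106 and −0.51 in T2215, and the cell cycle list lies below 0 in both.

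Cell cycle genes had lower values with HLX53 in every tested member. Of 30 genes 30 had a difference below 0, and 22 lay wholly below vehicle without overlap, against 10.3% of all genes. The median was −0.32. Ccnb2, which encodes cyclin B2 of mitotic entry (chromosome 9, 70407692 to 70421547), had 42.6, 36.5 and 35.8 FPKM in HLX53 tumours and 52.0, 60.5 and 57.6 in vehicle tumours (−0.56 ± 0.211, SE; limma, adjusted p = 1). Tk1, thymidine kinase of S phase, had 56.0, 39.4 and 60.1 with HLX53 and 72.9, 66.4 and 73.8 with vehicle (−0.47). The mitotic kinase gene Plk1 had 38.4, 40.9 and 34.3 with HLX53, against 53.2, 76.7 and 50.04 with vehicle (−0.63). None of these overlapped, while the proliferation marker Mki67, at 31.7, 40.3 and 29.1 with HLX53 and 37.9, 49.97 and 38.9 with vehicle, did (−0.32).

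The mean level of the cell cycle list was 5.72, 5.65 and 5.70 on the log2(FPKM + 0.5) scale in HLX53 tumours, against 6.01, 6.06 and 5.99 in vehicle tumours. The tumours of each group thus lay within 0.1 of each other, and the groups were separate. In the fit with all groups only Ccnb2 and Tk1, 2 of 30, had an unadjusted p under 0.05, against 2.06% of all genes on the lower side. Without the 3 libraries that stand apart, a setting added after the data were seen, the count was 20 of 30, against 4.43% of all genes, and still 0 genes passed the adjusted threshold by limma, where 1067 had an unadjusted p under 0.05. The differences themselves are the same in both fits, since those libraries belong to other groups.

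**Figure D5:**
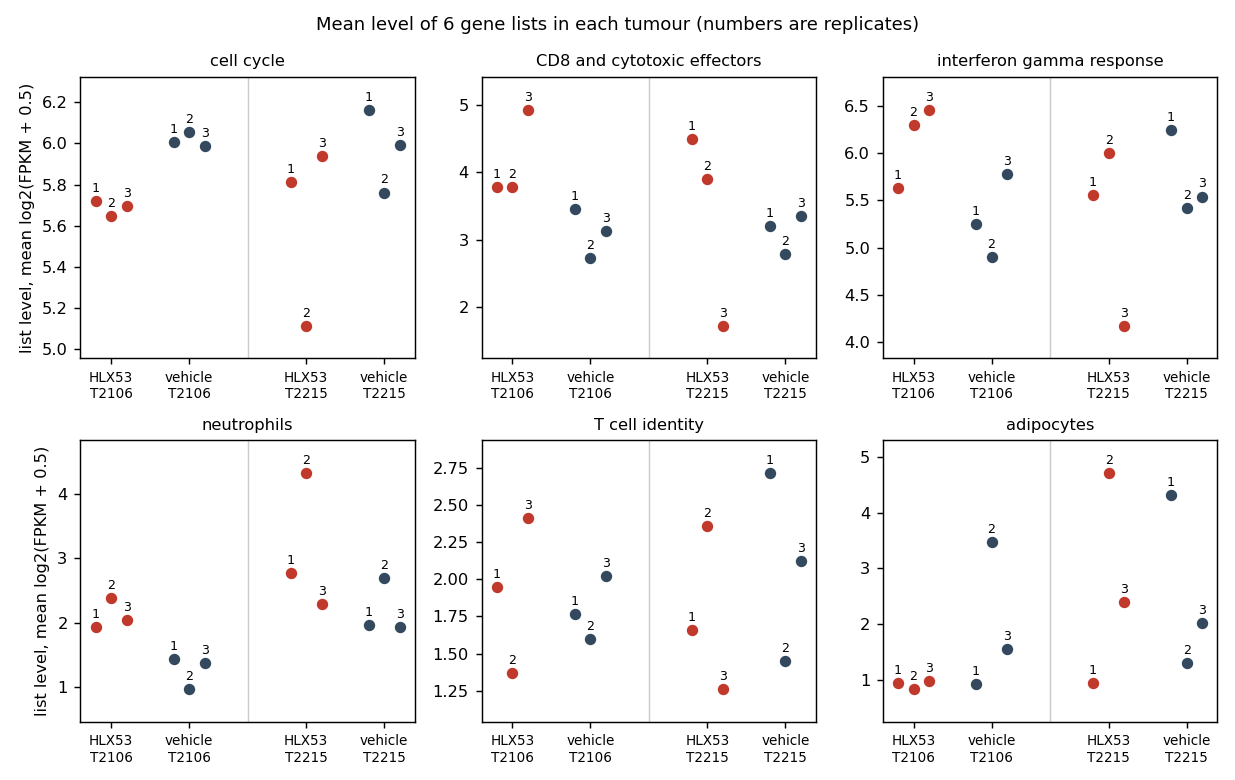
Mean log2(FPKM + 0.5) of 6 gene lists (y axis) in the single tumours of HLX53 and vehicle in T2106 (left of each panel) and T2215 (right), numbered by replicate. In T2106 the cell cycle level lies at 5.65 to 5.72 with HLX53 and at 5.99 to 6.06 with vehicle, and vehicle tumour 2 stands apart in the adipocyte list at 3.47.

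Stress genes were a smaller group. Hspa1b, an inducible HSP70 chaperone (chromosome 17, 34956436 to 34959238), had 19.4, 17.5 and 25.8 FPKM with HLX53 and 13.3, 4.27 and 8.49 with vehicle, without overlap (1.33 ± 0.324, SE; limma, adjusted p = 0.951). In serplulimab tumours of T2106 Hspa1b had 20.7, 30.5 and 37.1 FPKM, also above every vehicle tumour (HLX53 minus serplulimab −0.46). A higher level of Hspa1b was thus not shown to be particular to HLX53. Its neighbour Hspa1a, a near-identical copy that may share reads, had 4.26, 4.93 and 5.89 FPKM with HLX53 and 3.86, 0.511 and 2.48 with vehicle (1.22). The small heat shock gene Cryab had 33.7, 33.3 and 52.3 with HLX53, against 28.1, 25.1 and 20.1 with vehicle (0.67). Those 3 of the 25 chaperone genes had an unadjusted p under 0.05 on the higher side, against 1.8% of all genes, and the median of the list was 0.07. Leaving out a tumour gave 1 to 5 of 25, where 0.703% to 2.16% of all genes were higher at that p. Of 33 immediate early genes 6 had an unadjusted p under 0.05 on the higher side, against 1.8% of all genes, with a median of 0.27. Without vehicle tumour 2 the count was 1, against 0.703% of all genes in that fit, and without HLX53 tumour 2 it was 2, against 1.42%. Gadd45b, a growth arrest gene, had 22.7, 22.6 and 25.3 FPKM with HLX53 and 19.8, 9.64 and 15.5 with vehicle (0.69), and Junb, of the AP-1 factor, had 120, 161 and 111 with HLX53, against 97.6, 84.0 and 102 with vehicle (0.45).

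The promoter of Hspa1b is shown because the gene lay above vehicle without overlap in both experiments, as it also did with serplulimab in T2106. It spans chr17:34959189-34959488 on the minus strand (RefSeq, GRCm38.p6). The capitals mark a match to GAANNTTC, the core of the element that heat shock factors are known to bind, which begins 104 bases before the start.
Hspa1b: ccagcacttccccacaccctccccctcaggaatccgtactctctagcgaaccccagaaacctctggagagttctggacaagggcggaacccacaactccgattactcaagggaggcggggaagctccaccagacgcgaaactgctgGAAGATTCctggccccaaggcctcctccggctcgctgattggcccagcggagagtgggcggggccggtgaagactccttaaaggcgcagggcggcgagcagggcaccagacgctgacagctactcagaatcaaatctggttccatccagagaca
These letters occur in 7.86% of the 32851 promoters. They were not found in the Inmt window, and both promoters were chosen after the values were seen.

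Other genes with the smallest p-values were outside the lists. On the higher side, Angpt2, the vessel-destabilising angiopoietin, had 10.4, 15.7 and 17.98 FPKM with HLX53 and 8.83, 8.32 and 8.88 with vehicle (0.69 ± 0.163, SE; limma, adjusted p = 0.951). Vat1, a membrane protein of vesicle transport, had 106, 120 and 147 with HLX53, against 87.5, 72.8 and 81.1 with vehicle (0.62), and Prl2c2, a growth factor of the prolactin family, had 1.78, 3.97 and 11.1 with HLX53, against 1.27, 0.263 and 0.852 with vehicle (2.00). On the lower side, Apcdd1, an inhibitor of Wnt signalling, had 5.09, 4.93 and 3.87 FPKM with HLX53 and 7.49, 10.2 and 7.27 with vehicle (−0.77 ± 0.168, SE; limma, adjusted p = 0.951). Ogn, a proteoglycan of the matrix, had 22.1, 10.4 and 14.8 with HLX53, against 39.0, 45.9 and 36.2 with vehicle (−1.39). The groups did not overlap for any of them, which the choice by p favours.

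Further genes of the lower 10 were Kdelc2 (−0.45), Dmpk, a muscle kinase (−0.78), Tmem176a, a membrane protein of myeloid cells (−0.52), Cars2, a mitochondrial tRNA synthetase (−0.44), Ttc41 (−0.56) and Gcdh, a mitochondrial enzyme of lysine breakdown (−0.53). Each lay wholly below vehicle. Dio2, which activates thyroid hormone, had 5.01, 1.48 and 1.12 FPKM with HLX53 and 4.22, 5.98 and 4.75 with vehicle. HLX53 tumours 2 and 3 were below all vehicle tumours, and HLX53 tumour 1 was not (−1.06 ± 0.410, SE; limma, adjusted p = 1). The differences furthest from 0 among all genes tested were those of ribosomal pseudogenes, Rpl35a-ps3 at −7.62 and Rpl35a-ps6 at 7.27, near-identical copies whose reads cannot be placed with certainty, named after their values were seen.

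Vehicle tumour 2 stood apart from the other vehicle tumours, among other genes in those of fat cells, and the part of this in the list differences above was not tested. It was the lowest or the highest of the vehicle group in 84.1% of the genes tested, against 58.5% for tumour 1 and 57.5% for tumour 3. The mean level of 11 adipocyte genes was 0.946, 0.837 and 0.980 in HLX53 tumours, against 0.931, 3.47 and 1.56 in vehicle tumours. Cfd, the adipocyte protease adipsin, had 0.364, 0.034 and 0.026 FPKM with HLX53 and 0.898, 106 and 6.52 with vehicle (−4.03; limma, adjusted p = 1). The fat cell hormone gene Adipoq had 0.025, 0.000439 and 0.0227 FPKM with HLX53 and 0.107, 11.8 and 0.846 with vehicle (−2.06). The list of hypoxia and glycolysis genes had a mean level of 6.66, 6.67 and 6.70 with HLX53 and 6.79, 5.47 and 6.39 with vehicle. The list median was 0.46, with 5 of 26 higher at an unadjusted p under 0.05, against 1.8% of all genes, among them Hk2 (0.79), Slc2a3 (1.23) and Pfkp (0.57). Without vehicle tumour 2 the median was 0.06 and the count 0 of 26. The count was 2 without HLX53 tumour 2 and 2 without HLX53 tumour 3, against 1.42% and 0.836% of all genes in those fits. It was 8 without vehicle tumour 3 and 13 without vehicle tumour 1, against 2.16% and 2.09%. Mitochondrial transcripts had a level of 10.83, 10.97 and 10.74 with HLX53 and 10.99, 11.5 and 10.91 with vehicle, and 0 of 13 had an unadjusted p under 0.05. The median was −0.49, with 2 of 13 above 0. On the lower side 7 of 13 had such a p without vehicle tumour 3, against 2.03% of all genes in that fit, with a median of −0.73. Without HLX53 tumour 2 it was 6 of 13, against 1.63%, with a median of −0.69.

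With the adipocyte level as a covariate in the fit, Inmt was at −1.74 (limma, adjusted p = 0.0536), the interferon gamma list had a median of 0.73 and the cell cycle list one of −0.54. In that fit 16 of 30 cell cycle genes were lower at an unadjusted p under 0.05, against 7.12% of all genes. Medians of other lists lay further from those without the covariate. The cytotoxic list was at 1.08 with the covariate and 0.75 without it, the checkpoint list at 0.82 and 0.32, the neutrophil list at 1.176 and 0.69, and the dendritic cell list at 0.42 and −0.07. The dendritic cell list thus turned sign. The fibroblast and matrix list did so too, at 0.50 with the covariate and −0.22 without it. So did the regulatory T cell list, at 0.18 and −0.12, and the chaperone list, at −0.02 and 0.07. The same held for endothelium (0.46 and −0.12), epithelium (0.22 and −0.13), skeletal muscle (0.41 and −0.29) and skin keratinocytes (0.10 and −0.18). Ribosomal proteins (−0.06 and 0.15) and the adipocyte list itself (0.19 and −0.64) also turned. In the TIGIT axis 2 of 8 genes were higher at an unadjusted p under 0.05 with the covariate, against 6.62% of all genes. The hypoxia list was at 0.20 and 0.46.

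HLX53 alone was also tested in T2215, with other tumours and a vehicle group of its own. Limma called 0 of 14914 genes (0%), with 201 at an unadjusted p under 0.05 (1.35%). Across the 14646 genes tested in both experiments the log2 differences correlated at Pearson's r = 0.242 and a Spearman rank correlation of 0.331. Genes are not independent replicates, so this describes the tables only. Cell cycle genes again had values below vehicle in 30 of 30 members, with a median of −0.37, but 0 of 30 without overlap, against 2.96% of all genes. The level of that list in T2215 was 5.81, 5.11 and 5.94 with HLX53, against 6.17, 5.76 and 5.99 with vehicle. Neutrophil genes lay above 0 in 13 of 14 members (median 0.92) and inflammatory cytokines in 18 of 20 (median 0.56). On that side 1 of 14 and 4 of 20 had an unadjusted p under 0.05, against 1.35% of all genes in either direction. The levels of both lists overlapped between the groups. Neutrophil genes were at 2.76, 4.32 and 2.295 with HLX53, against 1.97, 2.695 and 1.93 with vehicle. Cytokines were at 4.10, 5.27 and 3.55 with HLX53, against 3.26, 4.21 and 3.52 with vehicle.

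The interferon gamma list pointed the other way in T2215. Of 25 genes 24 had a difference below 0, the median was −0.51 and 0 had an unadjusted p under 0.05. Its level was 5.56, 6.001 and 4.17 with HLX53, against 6.24, 5.42 and 5.54 with vehicle, so that 1 HLX53 tumour lay below all others and the groups overlapped. Irf1 had 107, 155 and 47.1 FPKM with HLX53 and 143, 98.6 and 105 with vehicle in T2215. The granzymes were as uneven. Gzmf had 1403, 266 and 4.73 FPKM with HLX53 and 15.6, 36.7 and 75.4 with vehicle, and Gzmb had 254, 81.8 and 12.5 with HLX53, against 56.6, 31.8 and 51.8 with vehicle. HLX53 tumours 1 and 2 thus lay above every vehicle tumour and HLX53 tumour 3 below. Whether the list differences differ between the experiments was not tested. Hspa1b had 28.1, 33.5 and 15.4 FPKM with HLX53 and 3.77, 13.5 and 14.6 with vehicle, without overlap (1.37 ± 0.602, SE; limma, adjusted p = 1), and Ccnb2 had 41.0, 27.2 and 51.6 with HLX53, against 62.3, 44.2 and 54.9 with vehicle (−0.46).

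Set against the tumours given serplulimab alone in T2106, HLX53 tumours differed in 0 of 15070 genes by limma (0%), with 243 at an unadjusted p under 0.05 (1.61%). Median differences of HLX53 minus serplulimab were 0.36 for the interferon gamma list, 0.20 for cytotoxic genes, 0.11 for cell cycle genes and −0.34 for neutrophil genes. The fibroblast and matrix list had −0.96. Retnla, a secreted protein of alternatively activated macrophages, was singled out after its values were seen. It had 0.223, 2.99e-06 and 0.049 FPKM in HLX53 tumours, against 8.43, 7.22 and 11.7 in serplulimab tumours, and 0.050, 0.988 and 0.219 in vehicle tumours. The limma adjusted p of HLX53 against serplulimab was 0.00154 without the libraries that stand apart and 0.016 in a fit of the 6 libraries alone, with a difference of −4.02, and it did not pass in the fit of all groups. In T2215 HLX53 tumours had 2.71e-06, 38.9 and 49.0 FPKM of Retnla, so that the low level in T2106 was not seen in 2 of those 3 tumours.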

How the data were processed

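Total RNA of whole tumours was sequenced as 150-nucleotide paired-end reads, per the labels' protocols. FastQC, Trimmomatic, STAR and Bowtie are named in the submitters' processing notes, as are hg19, mm10 and GRCh37, with no role for any. Which program made the expression values is not given here. The authors deposited log2 FPKM values of 47729 mouse genes, a table per experiment, each normalised on its own, and 0 columns were left unused. FPKM of a library summed to 678636 to 911201. Depth is unknown, so counting error has no interval.

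Values were tested as log2(FPKM + 0.5), a scale that understates changes of weakly expressed genes. A gene was kept if 3 or more libraries held it at 0.5 FPKM or above, and limma 3.58.1 in R 4.3.3 (eBayes with a trend) was run on those kept. All groups of an experiment entered the fit, and Benjamini-Hochberg values over all genes tested had to be under 0.05. The procedure was tested on simulated data. The comparisons were HLX53 against vehicle in each experiment and HLX53 against serplulimab in T2106. A list level is the mean over the tested members of a list. Lists were described by counts and medians, with no test.

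The 34 gene lists and the named genes were chosen with earlier results of these data known. Names were the genes past the threshold, the 10 with the smallest p in each direction, the TIGIT axis, a panel of 17 genes and up to 4 genes of each list, of which part is printed and a few results are not reported here. Models with Gm numbers or Rik names were not named. Coordinates are of GENCODE M21 on GRCm38, and promoters of RefSeq on GRCm38.p6. Irf1, Angpt2, Ogn, Foxp3 and Gzmf are among the named genes that overlap another gene, whose reads can be shared, and no source used here states whether counting used strand.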

Additional observations from a re-analysis of the deposited data

How the results depend on the processing

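HLX53 against vehicle in T2106 called 1 gene. The count was 0 with a pseudocount of 0.1, in a fit of only the 6 libraries compared, with the adipocyte list level as a covariate and, in a setting added after the data were seen, without the 3 libraries that stand apart, and 2 with no filter on low values, where Gm17508, under 0.1 FPKM in all 6 tumours, joined Inmt. Leaving out a tumour gave 0 to 1 genes. Replicate numbers were shared between the groups, but no label says that they mark a litter, batch or day, so they were not taken as pairs. Deviations from the group means correlated at r = −0.029, 0.386 and 0.258 in same-numbered tumours. In differently numbered ones r was −0.381 to 0.304, and with 3 tumours a group these values cannot settle the pairing. The fit with a replicate block called 0 genes (smallest adjusted p by limma 0.0657). In T2215 the count of 0 became 2 with no filter, and against serplulimab the count of 0 became 1 with no filter, and 1, Retnla, in the fit of 6 libraries and without the libraries that stand apart. All of these genes but Inmt and Retnla lay under 0.1 FPKM in the 6 tumours compared. The cause of these shifts was not tested.

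Differences that turned sign were not all small, and Siglech, which turned with the adipocyte covariate, lay wholly below vehicle in single tumours. With the adipocyte covariate Tigit was at −0.39, Pvrl3 at 0.37, Pvrl4 at 0.25, Cd3e at 0.48, Cd4 at 0.47, Siglech at 0.19 and Retnla, against vehicle, at 0.48. Leaving out a tumour moved Tigit between −0.085 and 0.11, Pvrl1 between −0.031 and 0.099, Pvrl2 between −0.035 and 0.078, Cd3e between −0.47 and 0.30, Cd8a between −0.17 and 0.56, B2m between −0.057 and 0.25, H2-K1 between −0.10 and 0.25, Cpa3 between −0.77 and 0.18, and Mcpt4 between −1.01 and 0.23. No other setting tried turned the sign of a difference from vehicle in T2106 among the 81 genes compared across settings. Of the list medians 29 of 442 moved by more than the spread between replicates, 16 of them under the adipocyte covariate. Depth is unknown, so how far it limits the weakly expressed genes could not be given.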
